A study of Mus musculus with 8 samples.

Results

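A set of 10 secreted matrix genes was examined: the thrombospondins Thbs1, Thbs2 and Thbs3, tenascin-C (Tnc), periostin (Postn), osteopontin (Spp1), the Sparc family genes Sparc, Sparcl1 and Smoc1, and fibronectin (Fn1). They are 10 of the 23503 genes that the deposited tables give, matched by symbol, and they cover 23 of the 30769 transcript entries. Where a gene had several entries, their FPKM values were summed (FPKM counts fragments relative to transcript length and library depth).

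All cells were p53 knockout mesenchymal stem cells grown from mouse bone marrow and kept at less than 20 passages. Each of 4 single clones (2, 4, 8 and 12) was transduced with a retrovirus carrying luciferase (Luc), the control, or with one carrying cFos cDNA, which encodes a subunit of the AP-1 transcription factor. The result was 4 Luc and 4 cFos libraries of polyadenylated RNA, 1 per clone and virus, named below by virus and clone (Luc 8). A clone is 1 line, so the spread between replicates is that between lines, and no clone and virus had a second library.

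Matricellular proteins are secreted into the extracellular matrix, where they modulate adhesion, growth factor signals and collagen assembly rather than serve mainly as structural elements. Their production in adult tissue typically increases during wound repair, bone formation and in tumour stroma. Fibronectin is a fibrillar scaffold on which several of them assemble, and cells bind it chiefly through integrins.

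Aligned sequence amounted to 6.93 to 9.14 gigabases per library (coverage times transcript length). Fos, the transduced gene, stood at 41.1 to 302 FPKM in Luc, highest in Luc 8, and at 505 to 1019 in cFos. Of 12 stromal progenitor markers, 9 could be tested, of which Pdgfrb rose (limma adjusted p = 0.0442) and Cxcl12 fell (0.0154). Over all genes tested 2.92% rose and 2.62% fell. Pdgfrb kept its call only without Luc 4 or cFos 12 of the 8 fits that each left out 1 library (0.0377 to 0.129), and lost it with no filter on low genes (0.123) and no trend (0.0531). Cxcl12 lost its call without cFos 2 (0.0558) and with no filter (0.0920). With the clone as a block in the model both genes passed (0.0213 and 0.00954), beside 4.51% rising and 4.28% falling over all genes. In that model Pdgfrb did not pass without clone 2 (0.0726) or clone 4 (0.0952), nor Cxcl12 without clone 2 (0.0503). Col1a1 was at 1384 ± 694 FPKM in Luc and 1531 ± 281 in cFos (SD, n = 4), whereas Lepr, Thy1 and Nt5e were too low in most libraries to be tested. Thy1 still reached 21.9 FPKM in Luc 12, 23.8 in cFos 12 and 15.9 in cFos 8, against 0.597 in Luc 8. The 8 blood cell markers in the files summed to 2.37 to 2.90 FPKM in Luc and 1.66 to 2.57 in cFos. Among them the macrophage marker Adgre1 was at 0 in all 4 Luc libraries. Cd14, the 1 that could be tested, was at 0.902 to 2.69 FPKM in Luc and 1.35 to 2.30 in cFos. Lyz2 reached 1.45 FPKM in Luc 8. The 5 endothelial markers summed to 0.155 to 0.432 and 0.0605 to 0.110 FPKM, with Cdh5 at 0 in all 8 libraries. The 4 osteoclast markers summed to 1.20 to 67.6 FPKM in Luc and 3.92 to 30.9 in cFos, with Ctsk at 67.5 in Luc 8. Most of that sum was Ctsk, since Acp5, Calcr and Ocstamp were each at most 0.284 FPKM in Luc. In cFos Acp5 reached 2.49 FPKM (cFos 12). The 4 chondrocyte markers summed to 0.835 to 35.7 and 0.294 to 3.51 FPKM, with Col2a1 at 35.2 in Luc 12. In bulk RNA, fewer cells of a kind and less RNA per cell cannot be told apart.

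As a group the 10 genes were abundant. Together they held 1.15 to 1.53% of all FPKM in the Luc libraries and 0.958 to 1.13% in the cFos libraries, so the ranges did not overlap. Without Thbs1 the other 9 held 0.834 to 1.16% and 0.780 to 1.04%, which overlapped. Per unit of transcript length, the Luc order of mean levels was Thbs1 at 1581 FPKM, Spp1 at 1430, Sparc at 1225 and Fn1 at 1056. Thbs2 at 357, Tnc at 205 and Postn at 186 followed, and Thbs3 at 12.0, Smoc1 at 10.8 and Sparcl1 at 5.19 came last. Neighbours in this order overlapped in their 4 values, except Postn and Thbs3. In cFos the order was Sparc at 1687 FPKM, Spp1 at 1638, Fn1 at 801, Thbs1 at 560.3, Thbs2 at 157, Tnc at 102, Postn at 84.7, Smoc1 at 9.41, Thbs3 at 7.87 and Sparcl1 at 3.86. There Thbs1 and Thbs2 were the only neighbours whose values did not overlap. By mean level, Thbs1 ranked 31 among all genes in Luc and 136 in cFos, while Sparc ranked 53 and 29.

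**Figure D1:**
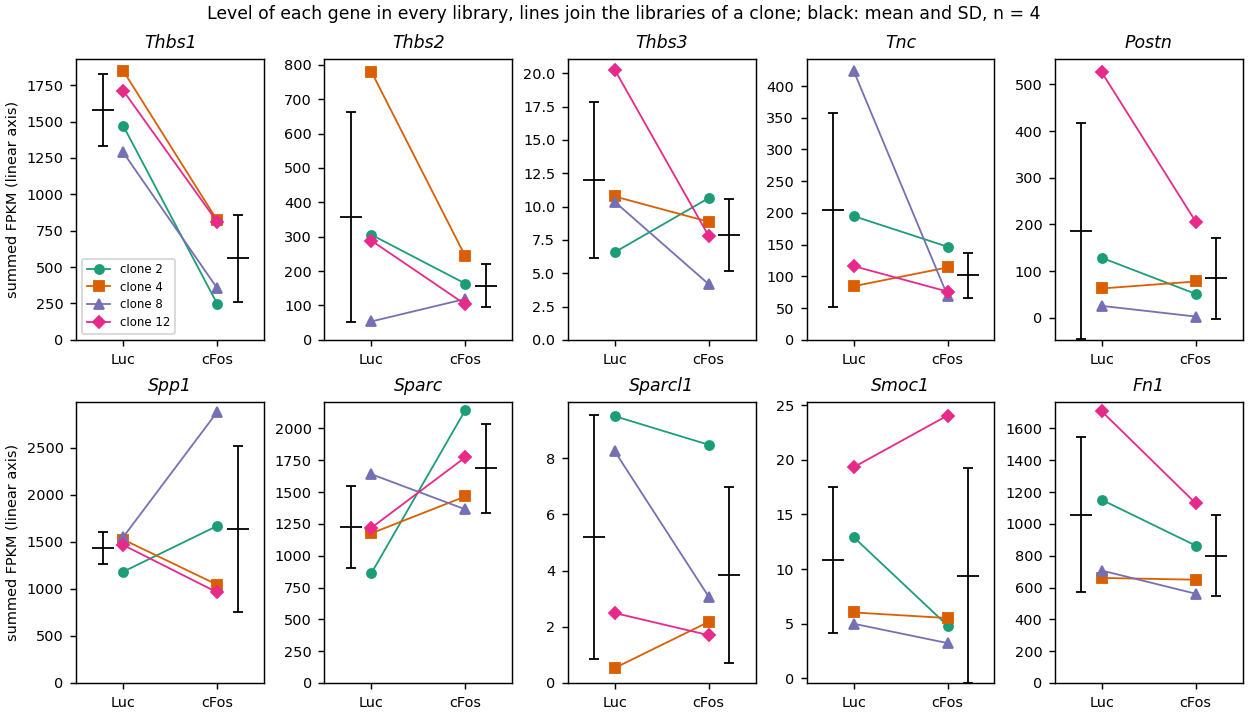
Summed FPKM of each of the 10 genes (linear axes that start at or below 0) in the Luc and cFos library of each clone, with lines joining the libraries of a clone and black bars for the mean and SD of 4 libraries. Thbs1 is the gene whose Luc values (1289 to 1849.6 FPKM) all lie above its cFos values (249.8 to 823).

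The difference between cFos and Luc was tested with limma over 11162 genes on log2(FPKM + 0.5), without a clone term. All 10 genes passed the filter of at least 1 FPKM in at least 4 libraries. One of the 10, Thbs1, fell (Benjamini-Hochberg adjusted p under 0.05), none rose and 9 did not pass. Over all genes 2.62% fell and 2.92% rose, 5.55% together. At an unadjusted p under 0.05 Thbs1 was again the 1 gene of the 10, beside 20.1% of all genes. With the clone as a block in the model it was still the 1 gene called, beside 8.79% of all genes (4.28% falling and 4.51% rising). The fitted difference was negative for 8 of the 10 and positive for Spp1 and Sparc, with a median of -0.48 against -0.06 over all genes tested. Lower values in cFos in all 4 clones were seen for Thbs1 and Fn1, a pattern found in 20.9% of tested genes. None of the 10 was higher in all 4 clones, as 15.3% of tested genes were.

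**Figure D2:**
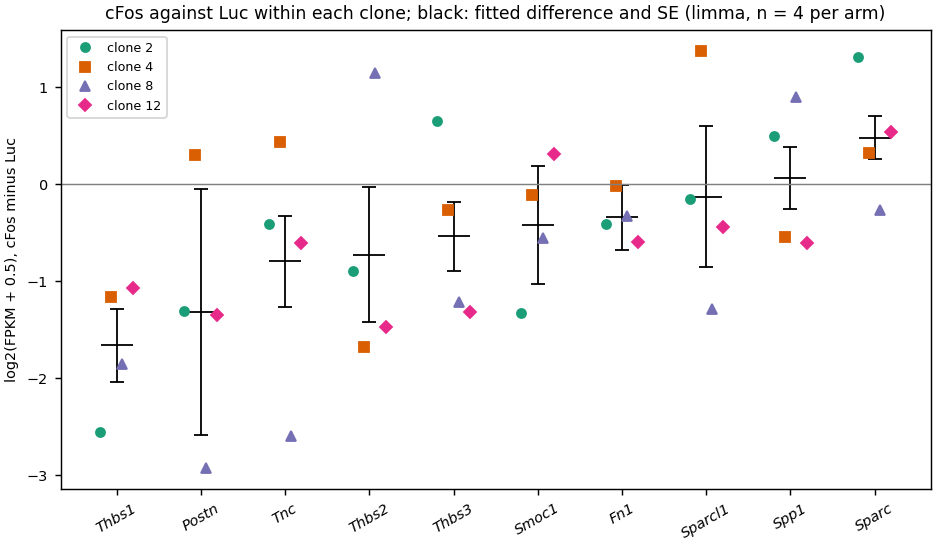
Difference of log2(FPKM + 0.5), cFos minus Luc, for each of the 10 genes within clones 2, 4, 8 and 12 (coloured points), with the fitted difference and its SE in black. All 4 points lie below 0 for Thbs1 and Fn1, and the clones differ in direction for the other 8 genes.

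Among the thrombospondins, Thbs1 was lower in every cFos library. Thbs1 (chromosome 2, 117937658 to 117952869 in mm9, 1 transcript) encodes thrombospondin-1, which binds Cd47 and Cd36, restrains vessel growth and activates latent TGF-beta. FPKM values of the Luc libraries (clones 2, 4, 8, 12) were 1472, 1849.6, 1289 and 1713, and those of the cFos libraries 249.8, 823, 356 and 812. The groups did not overlap, as was so for 7.8% of tested genes in this direction and 5.86% in the other. Within clones 2, 4, 8 and 12 the cFos level was lower by factors of 5.89, 2.25, 3.62 and 2.11. Means were 1581 ± 249.7 FPKM in Luc and 560.3 ± 300.1 in cFos (SD, n = 4), a log2 difference of -1.66 (SE 0.38, limma adjusted p = 0.0376, and 0.0157 with the clone as a block). In the fit without the block the call ended when Luc 2 (0.0856), Luc 4 (0.0880), Luc 8 (0.0528), Luc 12 (0.0735), cFos 2 (0.0750) or cFos 8 (0.0994) was left out. It ended too with no filter on low genes (0.154), whereas with the block it held without clone 2 (0.0429), clone 4 (0.0393), clone 8 (0.0371) or clone 12 (0.0277), fits that called 3.43, 3.44, 7.8 and 6.79% of all genes.

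Markers of smooth muscle and myofibroblasts fell alongside Thbs1. Of the 6 markers 4 could be tested and 3 fell, beside 2.62% of all genes. These were the contractile genes Acta2, Tagln and Myl9 (limma adjusted p = 0.0269, 0.00490 and 0.00812). The fourth, Cnn1, a regulator of smooth muscle contraction, was at 69.0 ± 64.4 FPKM in Luc and 18.4 ± 27.3 in cFos (0.148). With the clone as a block it passed too (0.0110), so that all 4 fell there, beside 4.28% of all genes. Acta2 did not pass without Luc 2 (0.0764), Luc 4 (0.0563), Luc 12 (0.0579), cFos 2 (0.0648) or cFos 4 (0.0810), nor in the block fit without clone 4 (0.0755). With no filter on low genes Acta2 (0.123) and Myl9 (0.0615) did not pass. The list summed to 1657 to 2953 FPKM in Luc and 218 to 948 in cFos, and Tagln, for one, stood at 452 ± 64.4 and 80.8 ± 53.6. The smooth muscle markers Myh11 and Des were below 1 FPKM in every library. The part of this shift in the Thbs1 result was not tested. Of 6178 tested genes with a mean of at least 10 FPKM, those whose 8 centred log2 values lay closest to Thbs1 were Ly75, an endocytic receptor (root mean square difference 0.41), and Myh10, a nonmuscle myosin heavy chain (0.43). The median over these genes was 1.01.

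Thbs2 (chromosome 17, 14802507 to 14831269) encodes the close relative thrombospondin-2. In the order of clones 2, 4, 8 and 12, Luc gave 306, 780.3, 53.5 and 289 FPKM and cFos gave 164, 244, 119 and 103. It was lower in cFos in clones 2, 4 and 12 and 2.22-fold higher in clone 8, whose Luc library had the lowest level of all. The difference of -0.73 (SE 0.70) did not pass (limma adjusted p = 0.615, and 0.364 with the block). Without clone 8, in the fit with the block, it was -1.35 and passed (0.0137).

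Thbs3 (chromosome 3, 89019109 to 89030759), which encodes a thrombospondin that forms pentamers and is found in growing skeleton, was far less abundant than Thbs1. Its values were 6.58, 10.8, 10.4 and 20.3 FPKM in Luc and 10.6, 8.86, 4.18 and 7.81 in cFos. It was 1.62-fold higher in clone 2 and lower in the other clones, and the groups overlapped (limma adjusted p = 0.448).

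Tenascin-C is a large protein that weakens adhesion to fibronectin, and periostin binds collagen and other matrix proteins in periosteum and in healing tissue. Tnc (chromosome 4, 63620819 to 63708049) gave 195, 84.5, 424 and 116 FPKM in the Luc libraries (clones 2, 4, 8, 12) and 147, 114, 69.6 and 76.1 in the cFos ones. Luc 8 stood highest, and within clone 8 the cFos level was 6.09-fold lower, while clones 2 and 12 were lower by factors of 1.33 and 1.53 and clone 4 was 1.35-fold higher. The fitted difference was -0.80 (SE 0.47, limma adjusted p = 0.388).

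Postn (chromosome 3, 54165029 to 54194963) had the widest range of the 10 genes as a ratio of highest to lowest, 20.4-fold in Luc and 69.6-fold in cFos. Luc libraries 2, 4, 8 and 12 held 129, 63.1, 25.8 and 525 FPKM, and their cFos counterparts 51.5, 78.0, 2.96 and 206. Clone 12 was highest and clone 8 lowest under both viruses. With cFos it was lower by factors of 2.50, 8.71 and 2.55 in clones 2, 8 and 12, and 1.24-fold higher in clone 4. The difference of -1.32 had an SE of 1.27 (limma adjusted p = 0.618), and an SE of 0.46 with the clone as a block (adjusted p = 0.136). In the block fit without clone 4 it was -1.86 and passed (0.0485).

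Osteopontin is a phosphorylated protein of bone and other mineral-bearing matrix that binds integrins and Cd44. Spp1 (chromosome 5, 104864130 to 104870072) was similar across the Luc libraries of clones 2, 4, 8 and 12, with 1181, 1523, 1549 and 1465 FPKM. With cFos it was at 1668, 1044, 2876 and 963. It was higher in clones 2 and 8 and lower in clones 4 and 12, and the fitted difference was 0.06 (SE 0.32, limma adjusted p = 0.944). Of its 5 transcripts 1 held 96.0 ± 0.14% of the level in Luc and 95.3 ± 0.18% in cFos.

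The Sparc family showed no call. Sparc (osteonectin, chromosome 11, 55208003 to 55233582) binds collagen and takes part in fibril assembly and mineralization. FPKM values of the Luc libraries (clones 2, 4, 8, 12) were 862, 1176, 1641 and 1219.6, and those of the cFos libraries 2143, 1466, 1365 and 1773. It was higher in 3 of 4 clones, by factors of 2.49, 1.25 and 1.45 in clones 2, 4 and 12, and 1.20-fold lower in clone 8. The difference of 0.48 (SE 0.22) did not pass (limma adjusted p = 0.270, and 0.300 with the block).

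Sparcl1 (hevin, chromosome 5, 104508128 to 104543107), a counter-adhesive relative of Sparc, was the lowest of the 10. It stood at 9.49, 0.533, 8.24 and 2.49 FPKM in Luc and at 8.48, 2.17, 3.07 and 1.70 in cFos, and Luc 4 was below 1 FPKM (limma adjusted p = 0.947). Smoc1 (chromosome 12, 82127795 to 82287401), a modulator of BMP signals, was at 12.9, 6.04, 5.01 and 19.3 FPKM in Luc and 4.84, 5.53, 3.24 and 24.0 in cFos. Clone 12 was highest under both viruses, and the difference of -0.42 (SE 0.61) did not pass (0.749).

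Fibronectin was modestly lower with cFos in each of the 4 clones, a difference that did not pass the test. Summed Fn1 (chromosome 1, 71632047 to 71699808 in mm9) gave 1151, 660.2, 707 and 1707 FPKM in the Luc libraries (clones 2, 4, 8, 12) and 864, 649, 561 and 1129.6 in the cFos ones. It was 1.33-fold, 1.02-fold, 1.26-fold and 1.51-fold lower in cFos in these clones. The groups overlapped, and the difference of -0.34 (SE 0.33) did not pass (limma adjusted p = 0.622, and 0.200 with the block, where the SE was 0.14).

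Fn1 was listed as 7 transcripts, which differ in parts that are spliced in or out. These are the extra domain B (EDB) and extra domain A (EDA) exons and a variable (V) region. EDB and EDA are typical of fibronectin made by cells in embryos, wounds and tumours and are largely absent from the fibronectin that liver releases into plasma. The V region holds a binding site for integrins that contain Itga4, and its first 75 bases are skipped in some forms. In the GENCODE annotation (build GRCm38), to which all 7 transcripts could be matched, the EDB exon is coding exon 25 of 46 of the longest form (chr1:71613763-71614035, minus strand, 273 bases) and is in 1 of the 7. The EDA exon is exon 33 (chr1:71603660-71603929, minus strand, 270 bases) and is in 4 of the 7. The 75-base V segment (chr1:71597673-71597747) opens exon 40 and is in 3 of the 7. The shares below turn on these parts, shown 5′ to 3′ with the alternative part in capitals and 10 bases on either side in the spliced transcript of the longest form in lower case.
EDB exon: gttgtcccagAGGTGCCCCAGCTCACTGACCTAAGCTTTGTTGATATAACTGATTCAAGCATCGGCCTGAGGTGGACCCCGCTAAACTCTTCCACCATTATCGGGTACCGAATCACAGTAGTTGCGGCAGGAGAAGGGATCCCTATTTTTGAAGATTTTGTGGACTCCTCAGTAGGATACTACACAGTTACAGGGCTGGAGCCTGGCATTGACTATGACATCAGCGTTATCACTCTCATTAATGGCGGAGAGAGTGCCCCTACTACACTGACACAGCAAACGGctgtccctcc
EDA exon: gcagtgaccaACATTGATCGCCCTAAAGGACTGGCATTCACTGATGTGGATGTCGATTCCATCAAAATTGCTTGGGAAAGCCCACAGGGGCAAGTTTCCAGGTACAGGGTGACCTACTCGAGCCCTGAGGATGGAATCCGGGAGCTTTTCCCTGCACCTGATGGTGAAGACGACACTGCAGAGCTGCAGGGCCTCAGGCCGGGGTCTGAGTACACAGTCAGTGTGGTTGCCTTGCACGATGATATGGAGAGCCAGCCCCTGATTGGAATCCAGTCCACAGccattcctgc
V segment: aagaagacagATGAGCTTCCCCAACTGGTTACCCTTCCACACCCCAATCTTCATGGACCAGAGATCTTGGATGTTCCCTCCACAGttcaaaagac

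The form with EDB made up a smaller share of Fn1 in cFos. It held 60.3, 39.4, 48.6 and 45.3% of summed Fn1 FPKM in the Luc libraries (clones 2, 4, 8, 12) and 12.9, 20.3, 15.6 and 35.8% with cFos. Each cFos value lay below each Luc value, and the means were 48.4 ± 8.78% and 21.2 ± 10.2% (SD, n = 4). How often transcripts of other genes separate in this way was not computed. By exact permutation (two-sided) p was 0.029 with libraries exchanged freely and 0.13 with exchange inside clones, the smallest that this design allows, and 0.0857 after adjustment over the 6 exon shares tested. EDA-bearing forms held 87.8, 81.6, 69.7 and 76.0% in Luc and 66.1, 69.2, 51.5 and 59.2% in cFos, again without overlap (78.8 ± 7.72% and 61.5 ± 7.88%, the same exact p-values). Both shares were lower in 4 of 4 clones. The EDB form also carries EDA, so it is counted in both and the shares are not independent. The EDA-bearing forms without EDB held means of 23.3, 4.93 and 2.17% of Fn1 in Luc, and 32.3, 5.94 and 2.10% in cFos. The difference in EDB share was -27.2 percentage points, and -32.1 to -23.3 when 1 library was left out.

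In FPKM, the EDB form fell short of its Luc level in each clone, at 694, 260.1, 343 and 773 (Luc libraries of clones 2, 4, 8, 12) against 111, 132, 87.6 and 405 in cFos. The authors' confidence limits for this form did not overlap within any clone. The nearest approach in FPKM was in clone 4, 249 to 271 against 126 to 138, and as a ratio in clone 12, 741 to 806 against 388 to 422. These limits cover the estimate within a library and not the spread between lines. The forms without EDB together stood at 539 ± 266 FPKM in Luc and 617 ± 142 in cFos. The form with the full V region that lacks both EDB and EDA went from 16.2 ± 5.41% to 30.8 ± 6.28% of Fn1.

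The usage of each transcript was tested by fitting it against the rest of its gene, over 3952 transcripts of genes with several (limma on log2 ratios). The log2 usage difference of the EDB form was -1.90 (SE 0.43, unadjusted p = 0.00147, adjusted p = 0.140), so it did not pass. None of the 3952 transcripts passed (0%), while 10.6% had an unadjusted p under 0.05, and 0.127% passed with the clone as a block (EDB form, adjusted p = 0.253). Cufflinks splits reads between forms by a model, and the EDB share rests on the 1 annotated form that carries the exon.

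The V region differed by fewer percentage points, and both of its shares were lower with cFos in 4 of 4 clones. Its 75-base segment was in forms holding 87.9 ± 2.02% of Fn1 in Luc and 84.2 ± 1.5% in cFos (exact two-sided permutation p = 0.0571, adjusted over the 6 shares 0.0857). Forms with any V sequence held 96.4 ± 0.54% and 95.9 ± 0.65% (0.400). The EDB form carries the full V region, so it is counted in both V shares. Itga4, whose product binds the V region, was at most 0.128 FPKM in any library.

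**Figure D3:**
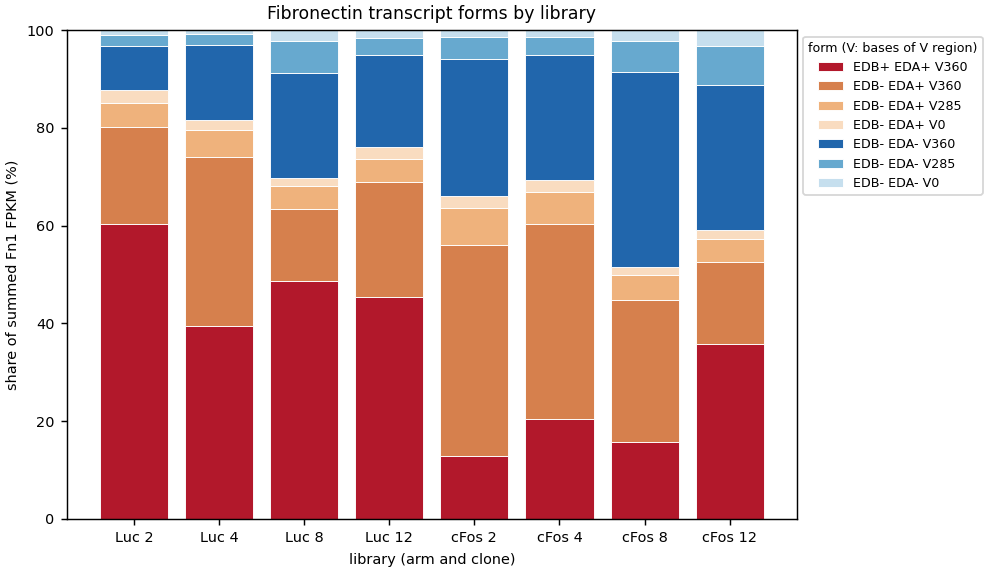
Share of summed Fn1 FPKM (percent, bars stacked to 100) held by each of the 7 transcript forms in every library, labelled by the presence of EDB and EDA and the bases of V region (360, 285 or 0). The EDB-bearing form (dark red) spans 39.4 to 60.3% in Luc and 12.9 to 35.8% in cFos.

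Periostin transcripts were examined in the same way, since splicing near the end of its coding region also yields forms of differing length. One of the 3 listed forms carries an exon of 81 bases (GRCm38, chr3:54380412-54380492, plus strand), another an exon of 84 bases (chr3:54385671-54385754), and the third lacks both. They are shown as above, because the share of 1 of them was higher in cFos in every clone.
Postn 81-base exon: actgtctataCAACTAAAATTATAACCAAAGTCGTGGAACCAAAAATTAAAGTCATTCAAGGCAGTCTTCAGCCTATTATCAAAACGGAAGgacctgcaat
Postn 84-base exon: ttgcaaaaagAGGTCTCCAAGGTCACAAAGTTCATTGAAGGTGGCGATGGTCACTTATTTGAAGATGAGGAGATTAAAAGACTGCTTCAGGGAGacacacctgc

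The form with the 84-base exon held 6.49, 14.6, 8.81 and 22.0% of Postn in the Luc libraries (clones 2, 4, 8, 12) and 15.2, 25.2, 37.6 and 27.2% with cFos. The groups overlapped (13.0 ± 6.91% and 26.3 ± 9.21%, exact two-sided permutation p = 0.0571, adjusted over the 6 shares 0.0857). The highest share came from cFos 8, where summed Postn was 2.96 FPKM. The 81-base exon form held 17.5 ± 8.81% and 18.8 ± 5.98% (exact permutation p = 0.83). Its usage difference and that of the 84-base form did not pass in the fit over all transcripts (adjusted p = 0.813 and 0.354).

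Whether the clones differed was tested with an F test for clone in a model that also held the virus. None of the 10 genes passed (limma), while 0.484% of all genes did. At an unadjusted p under 0.05 there were 5 of the 10, Thbs2, Postn, Sparcl1, Fn1 and Smoc1, beside 16.5% of all genes. The smallest adjusted p was that of Postn (0.0776), which passed without Luc 8 (0.0424), and Thbs2 passed without cFos 8 (0.0312). Clone 12 had the highest Postn, Fn1 and Smoc1 under both viruses. Sparc, by contrast, had an adjusted p of 0.967, and its highest library was of clone 8 in Luc and of clone 2 in cFos.

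Clone 8 held the largest fold differences of Tnc and Postn. Of the 10 genes, 5 were at least 2-fold lower in cFos 8 than in Luc 8 and 1 was at least 2-fold higher. In clone 2 these counts were 3 and 1, in clone 4 they were 2 and 1, and in clone 12 they were 4 and 0. With 1 library per clone and virus, these differences between clones could not be tested. The share of all genes past 2-fold within a clone was not computed, so the counts describe only the 10.

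Among other matricellular genes the rise of Tgfbi was the 1 call without the block. Of 21 listed, 10 could be tested, of which 1 rose and none fell (2.92% and 2.62% over all genes), with a median log2 difference of -0.35 against -0.06 over all genes. Tgfbi, a fasciclin-domain protein related to periostin, rose from 31.2 ± 19.2 to 362 ± 129 FPKM (log2 difference 3.62, SE 0.43, limma adjusted p = 0.00275). With the clone as a block Ccn4, a Wnt-induced CCN protein, also rose (12.9 ± 6.11 and 30.1 ± 9.20 FPKM, adjusted p = 0.00956, and 0.0688 without the block). Fstl1, which shares a follistatin-like domain with Sparc, fell with the block (411 ± 148 and 242 ± 57.0 FPKM, adjusted p = 0.0288, and 0.174 without the block). In block fits that left out 1 clone, Ccn4 passed each time (0.0157 to 0.0427), whereas Fstl1 did not pass without clone 2 (0.101), clone 4 (0.135) or clone 8 (0.0550). Ccn5 was at 79.0 ± 31.5 and 200.2 ± 80.5 (0.0880), and Ccn2, the connective tissue growth factor, at 105 ± 65.0 and 26.4 ± 21.4 (0.161).

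Receptors of these proteins gave no call without the block. Of 22 listed, 16 were tested and none passed (limma), beside 5.55% of all genes, with a median of 0.09. An unadjusted p under 0.05 was seen for 4, beside 20.1% of all genes. In the block fit 2 of the 16 rose and 2 fell (4.51% and 4.28% over all genes). The rises were Itga5, the fibronectin receptor subunit (64.4 ± 15.4 and 100.4 ± 16.9 FPKM, adjusted p = 0.0238), and Cd44, which binds osteopontin and hyaluronan (39.3 ± 23.0 and 73.5 ± 24.8, adjusted p = 0.0204). The falls were Lrp1, an endocytic receptor that clears thrombospondins (88.4 ± 25.7 and 49.8 ± 7.08, adjusted p = 0.0167), and Itga9, which binds tenascin-C (5.76 ± 6.46 and 0.918 ± 0.485, adjusted p = 0.0333). Without the block the adjusted p-values of Itga5, Cd44, Lrp1 and Itga9 were 0.0876, 0.232, 0.0540 and 0.131. Each of these 4 block calls ended in some fits that left out a clone. Without clone 2 or clone 4, Itga5 was at 0.0860 and 0.111, Cd44 at 0.0893 and 0.0841, and Lrp1 at 0.0609 and 0.0603. Itga9 did not pass without clone 2 (0.133) or clone 12 (0.0669). Of the thrombospondin receptors, Cd47 was at 26.7 ± 10.01 and 29.8 ± 4.92 FPKM and Cd36 at 1.45 ± 1.64 and 0.962 ± 0.743. Also on the receptor list, Calr was at 791 ± 175 and 591 ± 74.4 FPKM (0.254). Cacna2d1 was at 11.2 ± 0.571 and 13.0 ± 2.23 (0.521). Itgb1, the partner of Itga5, was at 277 ± 22.0 and 238 ± 44.8, Itgav at 49.1 ± 8.41 and 59.7 ± 10.3, and Itgb3 at 3.10 ± 0.559 and 3.83 ± 2.13.

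Of 25 proteins that share the matrix with them, 22 were tested, with a median of -0.22. Of these 2 fell and none rose (2.62% and 2.92% over all genes). Both are microfibril or elastic fibre genes, as are many genes of this list, so their shared class is no result in itself. Fbln5, which helps elastic fibres assemble, fell from 25.3 ± 6.31 to 6.13 ± 1.89 FPKM (log2 difference -1.97, SE 0.25, limma adjusted p = 0.00357). Fbn1, the main microfibril protein, fell from 73.9 ± 27.4 to 24.1 ± 9.31 (-1.59, adjusted p = 0.0210), and it no longer passed when Luc 2 (0.0593), cFos 2 (0.0722), cFos 4 (0.0643) or cFos 8 (0.0577) was dropped, or with no filter on low genes (0.0976). With the clone as a block 4 fell (4.28% over all genes), adding Fbn2 (0.0161) and Fbln1 (0.0249). In block fits without a clone, Fbn1 did not pass without clone 2 (0.0844) or clone 4 (0.0542), Fbn2 without clone 2 (0.0680), or Fbln1 without clone 2 (0.0882), clone 4 (0.0549) or clone 12 (0.0599). Fbln5 passed in all of these fits (0.00312 to 0.0126). Lox, the collagen crosslinking enzyme, was at 785 ± 163 and 1196 ± 259 FPKM (0.127), and Ltbp1, which tethers latent TGF-beta to fibronectin matrix, at 31.0 ± 24.6 and 92.1 ± 10.5 (0.121, and 0.0468 without Luc 8 or 0.0491 without Luc 12).

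**Figure D4:**
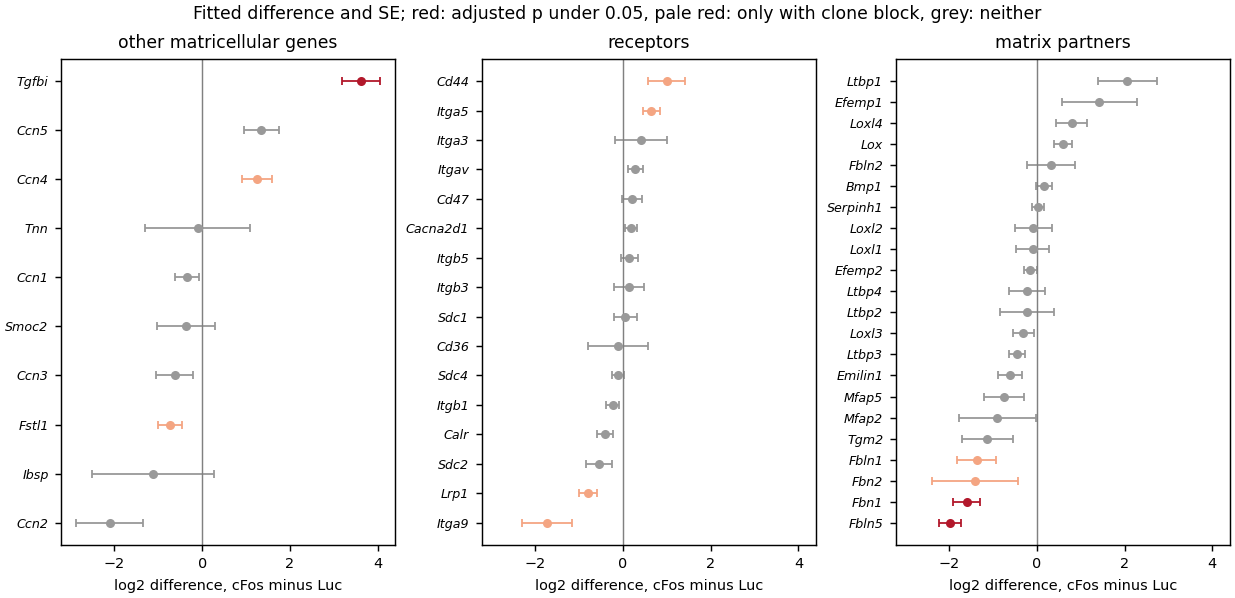
Fitted log2 difference, cFos minus Luc, with its SE for the tested genes of the 3 related lists, coloured by whether the adjusted p is under 0.05 without the clone block (red), only with it (pale red) or in neither fit (grey). Tgfbi (3.62) lies farthest to the right of all, and the lowest estimates of the 3 lists are those of Ccn2 (-2.11), Itga9 (-1.73) and Fbln5 (-1.97).

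Promoter windows from RefSeq (GRCm38.p6, 250 bases before to 50 after the start) were present for 6 of the 10 genes, Thbs2, Thbs3, Tnc, Postn, Spp1 and Sparc, in 9 windows. Thbs1, Sparcl1, Fn1 and Smoc1 had none in that table. Searched on both strands for the AP-1 site TGAGTCA or TGACTCA, which are each other's reverse complement, 0 of the 9 windows matched, against 5.20% of all 32851 windows. That says only that these letters are not in these windows.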

How the data were processed

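Per the submitters' processing notes, the authors used CASAVA 1.8.2, TopHat and Cufflinks with mouse build mm9. Tool options, other versions and the annotation were not given in the sources used here. According to their columns and per the file headers, the deposited tables give FPKM with confidence limits for each RefSeq transcript, the mean coverage per base (a signal, not normalized) and the transcript length. No scaling between libraries is recorded, and without counts of reads no counting interval could be given.

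Symbols came from RefSeq (30227 of 30769 entries) and GENCODE M21 (180), and 362 entries kept their accession. FPKM was summed per symbol, and 3 genes without an OK status in every library were left out. Each library was assigned to its virus and clone by its title.

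Differences were tested with limma 3.58.1 (R 4.3.3, eBayes with trend, two-sided) on log2(FPKM + 0.5). It covered the 11162 genes that reached 1 FPKM in 4 or more libraries, and an adjusted p under 0.05 counted as a call. This scale understates changes of low genes. Libraries are paired by clone number, because a number names 1 line. Deviations from the virus means correlated by 0.174, 0.593, 0.349 and 0.437 in clones 2, 4, 8 and 12, so the blocked fit is given where it alters a call named here. Exon shares were tested by exact permutation over 70 arrangements and 16 exchanges within clones. Transcript usage was fitted on log2 ratios with a pseudocount of 0.5 FPKM. Exons were read from GENCODE M21 by matching RefSeq accessions, and no coordinates were converted between builds. When the cFos and Luc comparison was simulated (11162 genes), 64% of genes changed 2-fold and 88% of those changed 4-fold were recovered without the block, with 5 false calls. With the block these were 55% and 90%, with 11 false calls. The simulated clone differences had a smaller SD than those fitted to the data, so recovery without the block may be overstated.

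The genes, the lists of related genes and markers, and the tests were chosen with earlier results of these data known. The exon shares, the usage fit, the block fits without a clone and the summed share without Thbs1 were added after values were seen. Genes named outside the 10 are, per related list, up to 5 of smallest adjusted p and those called in the blocked fit. Named too are some receptors with a known ligand among the 10, and the 2 genes closest to a called gene in their 8 values. Of the marker lists, those called in either fit are named. Others were picked after their values were seen (Col1a1, Lepr, Thy1, Nt5e, Adgre1, Cd14, Lyz2, Cdh5, Ctsk, Acp5, Calcr, Ocstamp, Col2a1, Myh11 and Des). Plots used Python 3.11.15 with matplotlib 3.10.9. The labels do not say whether clones came from separate animals, and p-values measure the spread between these clonal lines.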

Additional observations from a re-analysis of the deposited data

Results flagged for a closer look

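Each gene's 4 Luc and 4 cFos values, and each exon share, were examined for a library far from the other 3, in 32 groups of 4. One was found. Chance flags about 1 group in 20, so 1 of 32 groups is no more than chance would give. Smoc1 stood at 24.0 FPKM in cFos 12, while the other cFos libraries were at 3.24 to 5.53. The gap made up 0.89 of the group's range, past the critical value of Dixon's test. The Luc library of clone 12 was also the highest of its group, at 19.3 FPKM.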

How the results depend on the processing

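Of 199 values of the 10 genes' log2 differences under the alternatives, 181 kept their direction and side of the threshold. The number of genes lower in cFos was 1, and 0 with no filter on low values. It was 0 to 1 when 1 library was left out. With the replicate block it was 1. With the block and without clone 4 or clone 8 it was 2, as Postn or Thbs2 joined Thbs1. No gene was called higher under any alternative, and 0 to 1 differed between clones when 1 library was left out (0 with all). The block changed no other call among the 10. Directions turned for 2 genes that never passed. Spp1, at 0.06, gave -0.26 to 0.27 when 1 library was left out, -0.0858 with the block without clone 2 and -0.22 without clone 8. Sparcl1, at -0.13, gave -0.79 to 0.31, and 0.26 with the block without clone 8. For these the cause was not tested. The EDB form's usage difference lay between -2.35 and -1.42 in 15 alternatives (adjusted p 0.117 to 0.581). Median scaling moved the median difference of all genes by 0.06 and upper quartile scaling by 0.04, and Thbs1 passed under both. Other pseudocounts, a minimum of 5 FPKM and a fit without the trend left its call in place. At 5 FPKM Sparcl1 was not tested. Depth is known only as coverage.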
